A study of Mus musculus with 4 samples.

Results

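The nuclear genes that encode subunits of the mitochondrial respiratory chain were followed in CD4+ thymocytes with and without the microRNA gene Mir142. Members were all genes of the platform annotation whose symbol begins with Ndufa, Ndufb, Ndufc, Ndufs, Ndufv, Sdh, Uqcr, Cox4 to Cox8 or Atp5, on probe sets that list 1 gene symbol, leaving out the assembly factor genes Ndufaf and Sdhaf and pseudogenes. This gave 82 genes of 19938 on the array, each read from its brightest probe set, and the rule itself uses symbols and no measured values. Of the 82, 80 had a mean above a background threshold of log2 5.87. That threshold is the level under which 95% of 1194 odorant and vomeronasal receptor genes lie. The 2 others were Cox7b2 and Cox8b, tissue-restricted forms of cytochrome c oxidase subunits, and Ndufa4l2 lay at the threshold with a mean of 5.87. By complex, 34 members above background belonged to complex I, 4 to complex II, 8 to complex III, 17 to complex IV and 17 to complex V. Ndufa4 and Ndufa4l2 were counted in complex IV, where the Ndufa4 protein is now placed, although their names come from complex I.

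Expression was measured on 4 arrays of RNA from sorted CD4+ CD8- thymocytes, 1 array per group. The groups were miR-142-/- Qa2+, miR-142-/- Qa2-, WT Qa2+ and WT Qa2-, all from 8-week-old C57BL/6 mice of the N substrain. The Qa2+ cells were sorted as CD69- and are the more mature population, and the Qa2- cells were sorted as CD69+ and are newly selected. The miR-142-/- cells came from a pool of 4 mice (1 female and 3 males) labelled as lacking miR-142, and the WT (miR-142+/+) cells from a pool of 5 (3 females and 2 males). The design sets miR-142-/- against WT in each population and Qa2+ against Qa2- within each genotype. For 1 of the miR-142-/- samples the free text says Qa2+ where the title and sorting entry say Qa2-, and the title was followed.

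Complexes I and II pass electrons from NADH and succinate to ubiquinone, complex III passes them on to cytochrome c, and complex IV passes them to oxygen. Complexes I, III and IV pump protons, and complex V, the ATP synthase, uses the gradient to make ATP. Each complex except complex II also holds subunits encoded in mitochondrial DNA, and the nuclear subunits must be made in matching amounts. In thymocytes and T cells, oxidative phosphorylation is a main source of ATP in resting cells, and its genes are induced when cells grow and divide.

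The Mir142 probe set checked the labels, at log2 4.88 and 5.29 in miR-142-/- Qa2+ and Qa2- cells, both below background, against 9.41 and 10.11 in WT Qa2+ and Qa2- cells. The mature products of the deleted gene, from RefSeq (GRCm38.p6, plus strand, chr11:87756867-87756887 and chr11:87756903-87756925), are shown because their loss defines the genotype, with the seed, bases 2 to 8, in capitals.
mmu-miR-142a-5p: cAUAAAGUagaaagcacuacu
mmu-miR-142a-3p: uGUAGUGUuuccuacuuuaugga
Cd4 read 12.36 to 12.64 on the 4 arrays, and Cd69 was lower in Qa2+ than in Qa2- cells by 0.96 in miR-142-/- and 0.77 in WT. Array medians over all probe sets lay between 6.61 and 6.74, arrays correlated at 0.982 to 0.991 across probe sets. Precision is limited by having 4 arrays. Xist read 4.83 and 5.06 in miR-142-/- Qa2+ and Qa2- cells against 12.14 and 12.67 in WT, and the Y-linked gene Eif2s3y read 10.58 and 10.55 against 4.39 and 4.29, which does not match pools of both sexes. Genotype and these sex-linked transcripts cannot be told apart in any genotype difference given here. In bulk samples like these, fewer cells of a type and less RNA per cell cannot be told apart.

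Promoters of 4 members are shown because they carry the contrasts described below. The first 3 drive the genes for subunit c of ATP synthase, whose mature protein is the same although the genes read differently between genotypes, and Ndufc1 had the largest stage difference averaged over genotypes. Sequences are from RefSeq (GRCm38.p6), 250 bases before to 50 after the start site, on the minus strand in each case. Capitals mark matches to the motifs searched, and the Atp5g1 window holds none.
Atp5g1, chr11:96075582-96075881: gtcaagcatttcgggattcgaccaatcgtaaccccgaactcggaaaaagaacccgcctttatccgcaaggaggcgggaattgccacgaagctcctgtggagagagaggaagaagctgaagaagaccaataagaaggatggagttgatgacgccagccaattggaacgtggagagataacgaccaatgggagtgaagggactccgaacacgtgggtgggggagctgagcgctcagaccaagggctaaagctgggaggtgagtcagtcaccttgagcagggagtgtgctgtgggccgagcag
Atp5g2, chr15:102670998-102671297: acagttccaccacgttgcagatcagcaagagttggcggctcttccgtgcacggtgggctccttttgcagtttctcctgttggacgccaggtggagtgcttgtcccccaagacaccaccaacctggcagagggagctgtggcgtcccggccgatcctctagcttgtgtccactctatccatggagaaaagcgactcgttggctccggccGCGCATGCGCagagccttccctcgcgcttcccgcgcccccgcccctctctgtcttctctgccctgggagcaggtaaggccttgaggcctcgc
Atp5g3, chr2:73911277-73911576: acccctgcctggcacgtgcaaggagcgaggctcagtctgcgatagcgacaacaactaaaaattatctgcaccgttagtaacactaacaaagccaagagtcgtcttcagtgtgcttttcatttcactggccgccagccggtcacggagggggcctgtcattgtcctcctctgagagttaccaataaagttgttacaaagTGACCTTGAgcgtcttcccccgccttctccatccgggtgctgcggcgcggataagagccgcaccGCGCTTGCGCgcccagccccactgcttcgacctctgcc
Ndufc1, chr3:51408906-51409205: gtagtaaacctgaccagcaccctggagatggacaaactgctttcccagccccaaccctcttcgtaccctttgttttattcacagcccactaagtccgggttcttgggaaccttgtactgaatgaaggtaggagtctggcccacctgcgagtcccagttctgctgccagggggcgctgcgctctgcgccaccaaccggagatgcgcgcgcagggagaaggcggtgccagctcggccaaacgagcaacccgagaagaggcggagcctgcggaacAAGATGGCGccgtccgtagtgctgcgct
Motifs of 4 factors known for nuclear genes of mitochondria were searched on both strands. The letters GCGCA and GCGC, 1 base of any kind apart, for nuclear respiratory factor NRF1, were in 15 of 67 member promoters (22.4%) and in 4.78% of all 27025 promoters. CCGGAAG, for ETS factors such as GABP, was in 16 (23.9%) against 9.12% of all. AAGATGGCG, for YY1, was in 6 (8.96%) against 1.49%, and TCAAGGTCA, for the estrogen-related receptor, in 2 (2.99%) against 0.407%. The shares of all promoters include genes not expressed in these cells. Shares over genes above background alone were not counted, so an excess particular to the members was not tested. The capitals are an NRF1 match in Atp5g2, an estrogen-related receptor match followed by an NRF1 match in Atp5g3 and a YY1 match in Ndufc1. Promoters of 15 members were not used here, and where a gene had several the first listed was taken.

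Respiratory chain genes as a group read slightly lower in miR-142-/- than in WT cells, at both stages. Over the 80 members the median log2 difference, miR-142-/- minus WT, was -0.14 in Qa2+ and -0.14 in Qa2- cells, against 0.00 and -0.00 over all 12591 genes above background. In Qa2+ cells 62 members (77.5%) were below 0, against 49.7% of all genes, and in Qa2- cells 68 (85%), against 50.3%. In both populations 56 members (70%) were below 0, against 35.4% of all genes, and 6 (7.5%) were above 0, against 35.3%. The differences were small. At least 1.5-fold lower were 5 members in Qa2+ cells (6.25%), against 4.88% of all genes, and 1 in Qa2- cells (1.25%), against 3.74%, so these shares are near the background or under it. In Qa2+ and Qa2- cells 0 members were at least 1.5-fold higher, against 4.56% and 3.11% of all genes. In either direction, 5 and 1 members were past 1.5-fold, against 9.44% and 6.85% of all genes. Each group has 1 array, so these differences were not tested. Single receptor genes, which sit at background, scattered with an SD of 0.18 in Qa2+ and 0.15 in Qa2- cells, a measure for single genes and not for a median over many.

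**Figure D1:**
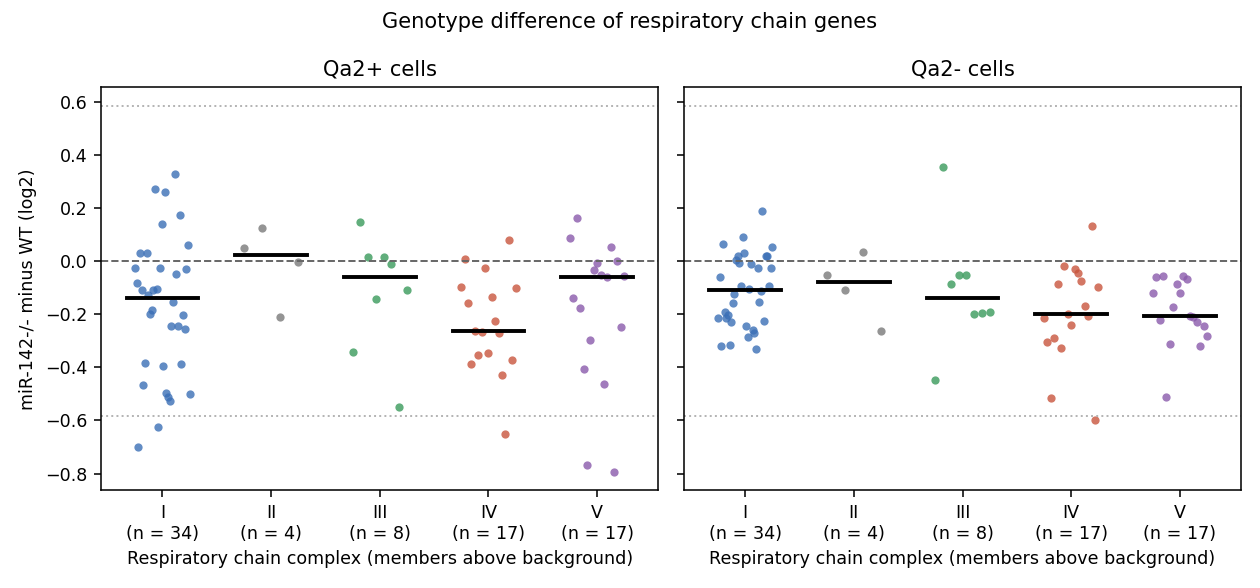
Log2 difference, miR-142-/- minus WT, of each of the 80 members above background, by complex, in Qa2+ cells (left) and Qa2- cells (right). Points are genes, black bars the median of the complex, the dashed line the median of all genes above background and the dotted lines 1.5-fold. Complex IV medians lay at -0.26 and -0.20 and complex I medians at -0.14 and -0.11.

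By complex, median differences (Qa2+ cells, then Qa2- cells) came to -0.14 and -0.11 for complex I, 0.02 and -0.08 for complex II, -0.06 and -0.14 for complex III, -0.26 and -0.20 for complex IV and -0.06 and -0.21 for complex V. Complex IV had 15 of 17 members below 0 in both populations and complex V 14 of 17, while complex I had 21 of 34, complex III 5 of 8 and complex II 1 of 4. The order of the complexes was not the same in both populations, and differences between complexes were not tested. At least 1.2-fold lower in both populations were 7 members, Atp5e, Atp5g1, Cox5b, Cox6a2, Ndufa11, Ndufa4 and Uqcr10, which is 8.75% against 8.62% of all genes. At least 1.2-fold higher in both were 0 members, against 7.69% of all genes.

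**Figure D2:**
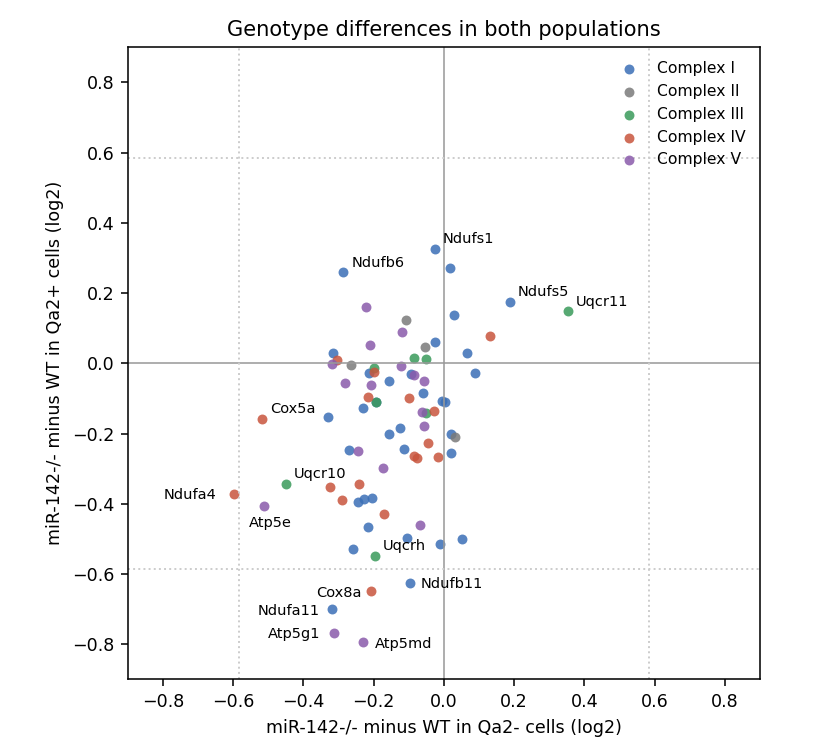
Log2 difference, miR-142-/- minus WT, in Qa2- cells (horizontal) and Qa2+ cells (vertical) for the 80 members, coloured by complex, with dotted lines at 1.5-fold. Of the 80 points, 56 lie below 0 on both axes and 6 above 0 on both, among them Uqcr11 at 0.15 in Qa2+ and 0.35 in Qa2- cells.

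Complex I has catalytic core subunits, which bind NADH, flavin, iron-sulphur clusters and ubiquinone, and accessory subunits around them. The 6 core members had medians of -0.04 and -0.02 in Qa2+ and Qa2- cells, and the 28 accessory members -0.17 and -0.14. Ndufs1, the large iron-sulphur subunit, read 9.50 and 9.20 in miR-142-/- Qa2+ and Qa2- cells, against 9.18 and 9.22 in WT. The miR-142-/- Qa2+ array was highest and the other 3 lay close together. Ndufv1, which binds NADH and flavin, differed between genotypes by -0.03 and -0.09, the iron-sulphur subunit Ndufv2 by 0.06 and -0.02 and the core subunit Ndufs3 by -0.05 and -0.16. The iron-sulphur subunits nearest the ubiquinone site, Ndufs7 and Ndufs8, differed by -0.20 and -0.26 in Qa2+ cells, with 0.02 and 0.02 in Qa2- cells.

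Among accessory subunits of complex I, Ndufa11, a membrane-arm subunit, read 9.77 and 10.18 in miR-142-/- Qa2+ and Qa2- cells, against 10.47 and 10.50 in WT Qa2+ and Qa2- cells. Both miR-142-/- arrays lay below both WT arrays, and the difference was 1.62-fold in Qa2+ cells and -0.32 on the log2 scale in Qa2- cells. Its other probe set differed by -0.47 and -0.18. Ndufb9 read 9.52 and 9.94 against 10.05 and 10.19, with differences of -0.53 and -0.26 and again no overlap of the genotypes. Ndufa11 and Ndufb9, like Uqcr10, Uqcrh and Cox6a2 below, were named for their shared genotype difference. The share of all genes without overlap was not counted, so this ordering shows nothing particular to them. Ndufb11, an X-linked membrane-arm subunit, read 10.22 and 10.59 against 10.84 and 10.69. It was 1.54-fold lower in Qa2+ cells and differed by -0.10 in Qa2- cells. On this probe set the miR-142-/- Qa2+ array stood apart from the other 3. Its other probe set read 9.86 and 10.12 against 10.58 and 10.43, with differences of -0.72 and -0.31. There both miR-142-/- arrays lay below both WT arrays, so the pattern depends on the probe set. Ndufv3, an accessory subunit beside the NADH site, read 8.85 and 9.25 against 9.34 and 9.20, low on the miR-142-/- Qa2+ array. The other X-linked complex I member, Ndufa1, differed by -0.03 and -0.21. Members above 0 in both populations were Ndufs5 (0.17 and 0.19), Ndufa12 (0.03 and 0.06), Ndufb3 (0.14 and 0.03) and Ndufab1, the mitochondrial acyl carrier protein (0.27 and 0.02). The accessory subunits Ndufs4 and Ndufs6, which sit near the NADH-binding end, differed by -0.24 and -0.39 in Qa2+ cells, with -0.11 and -0.23 in Qa2- cells.

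Complex II, succinate dehydrogenase, is the one complex shared with the citric acid cycle. Its catalytic subunit gene Sdha read 10.94 and 10.84 in miR-142-/- Qa2+ and Qa2- cells, against 10.90 and 10.89 in WT, a range of 0.11 over the 4 arrays. The iron-sulphur subunit gene Sdhb read 10.14 and 10.32 against 10.02 and 10.42, and the arrays ordered by stage and not by genotype. The membrane anchors Sdhc and Sdhd read 9.49 and 9.39 in miR-142-/- Qa2+ cells against 9.71 and 9.39 in WT Qa2+ cells, and 9.83 and 9.25 in miR-142-/- Qa2- cells against 9.80 and 9.52 in WT Qa2- cells. Sdhc differed mainly in Qa2+ cells (-0.21) and Sdhd mainly in Qa2- cells (-0.26).

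In complex III the core proteins Uqcrc1 and Uqcrc2 differed by -0.14 and 0.01 in Qa2+ cells, with -0.05 and -0.05 in Qa2- cells, and Uqcrfs1, the Rieske iron-sulphur protein, by -0.01 and -0.20. The small subunit gene Uqcr10 read 8.31 and 8.37 in miR-142-/- Qa2+ and Qa2- cells, against 8.66 and 8.82 in WT, both miR-142-/- arrays below both WT arrays. Uqcrh, the hinge protein that helps dock cytochrome c, read 10.89 and 11.04 against 11.43 and 11.23, also without overlap. Uqcr11 ran the other way and read 9.25 and 9.53 in miR-142-/- against 9.10 and 9.18 in WT, with differences of 0.15 and 0.35. Its second probe set differed by 0.27 and 0.37.

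In complex IV, Ndufa4 read 8.76 and 8.65 in miR-142-/- Qa2+ and Qa2- cells, against 9.13 and 9.25 in WT. It was 1.51-fold lower in Qa2- cells, the single member past 1.5-fold there on its brightest probe set, and differed by -0.37 in Qa2+ cells. Cox7a2l differed by -0.27 in Qa2+ and -0.08 in Qa2- cells on its brightest probe set. On its second probe set it differed by -0.12 and -0.71, so its size in Qa2- cells depends on the probe set. Cox5a and Cox5b, which contact the catalytic core, differed by -0.16 and -0.39 in Qa2+ cells, with -0.52 and -0.29 in Qa2- cells. Cox8a, a small membrane subunit, read 10.59 and 10.81 against 11.23 and 11.02, 1.57-fold lower in Qa2+ cells and -0.21 in Qa2- cells, with the lowest value again on the miR-142-/- Qa2+ array. Cox7b, the third X-linked member, differed by -0.43 and -0.17 and Cox6c by -0.34 and -0.24. On its second probe set Cox7b differed by -0.59, past 1.5-fold, in Qa2+ cells and by -0.12 in Qa2- cells.

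Several complex IV subunits have a broadly expressed form and a form of muscle, lung or testis, and the level of 1 probe set says nothing about that of another. The broad forms Cox4i1, Cox6a1, Cox6b1, Cox7a2 and Cox8a differed between genotypes by -0.10, -0.26, -0.27, -0.23 and -0.65 in Qa2+ cells, with -0.22, -0.08, -0.02, -0.04 and -0.21 in Qa2- cells. The restricted forms Cox4i2, Cox6b2, Cox7a1 and Cox8c had means between 6.34 and 6.89, near the threshold, where differences are compressed. They differed by 0.01, -0.02, -0.14 and 0.08 in Qa2+ cells, with -0.30, -0.20, -0.03 and 0.13 in Qa2- cells. Cox6a2, the form of heart and skeletal muscle, read 7.23 and 7.44 in miR-142-/- Qa2+ and Qa2- cells, against 7.58 and 7.77 in WT. Both miR-142-/- arrays lay below both WT arrays, with differences of -0.35 and -0.33. Cox8b read 6.10, above the threshold, on the miR-142-/- Qa2+ array and 5.50 to 5.67 on the other 3, and Cox7b2 read 4.03 to 4.50. Ndufa4l2, a relative of Ndufa4 known for induction in hypoxia, differed by -0.10 and -0.10.

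Complex V joins a catalytic F1 head and its central stalk to a ring of c subunits in the membrane, with a peripheral stalk that holds the head still. All 3 genes for subunit c were below 0 in both populations, by unequal amounts. Atp5g1 read 10.76 and 11.16 in miR-142-/- Qa2+ and Qa2- cells, against 11.53 and 11.48 in WT, 1.70-fold lower in Qa2+ cells and -0.31 in Qa2- cells, and its second probe set gave -0.75 and -0.30. Atp5g2 read 11.74 and 11.60 against 12.03 and 11.77, with differences of -0.30 and -0.17. Atp5g3 read 10.91 and 10.93 against 10.94 and 11.02, a range of 0.11 over the arrays. Of the 3, Atp5g1 alone differed by 1.5-fold, and the difference between the 3 genes was not tested.

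In the F1 head, the alpha and beta subunit genes Atp5a1 and Atp5b differed by 0.09 and -0.14 in Qa2+ cells, with -0.12 and -0.06 in Qa2- cells, and Atp5c1 and Atp5d of the central stalk by 0.16 and -0.18 in Qa2+ cells, with -0.22 and -0.06 in Qa2- cells. Atp5e, the smallest subunit of the central stalk, read 8.56 and 8.63 in miR-142-/- Qa2+ and Qa2- cells, against 8.96 and 9.14 in WT. Both differences, -0.41 and -0.51, were larger in size than those of the other 4 F1 genes. The 4 peripheral stalk genes Atp5pb, Atp5h, Atp5j and Atp5o were below 0 in both populations, between -0.25 and -0.01 in Qa2+ and between -0.28 and -0.06 in Qa2- cells. Among membrane subunits, Atp5md, a small subunit found at the dimer interface, read 10.52 and 11.35 against 11.32 and 11.58. It was 1.73-fold lower in Qa2+ cells, the largest genotype difference of the 80 members, and -0.23 in Qa2- cells. Atp5j2, subunit f, differed by -0.46 and -0.07, Atp5k and Atp5l, subunits e and g, by -0.06 and 0.05 in Qa2+ cells, with -0.21 and -0.21 in Qa2- cells, and Atp5mpl by -0.00 and -0.32.

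**Figure D3:**
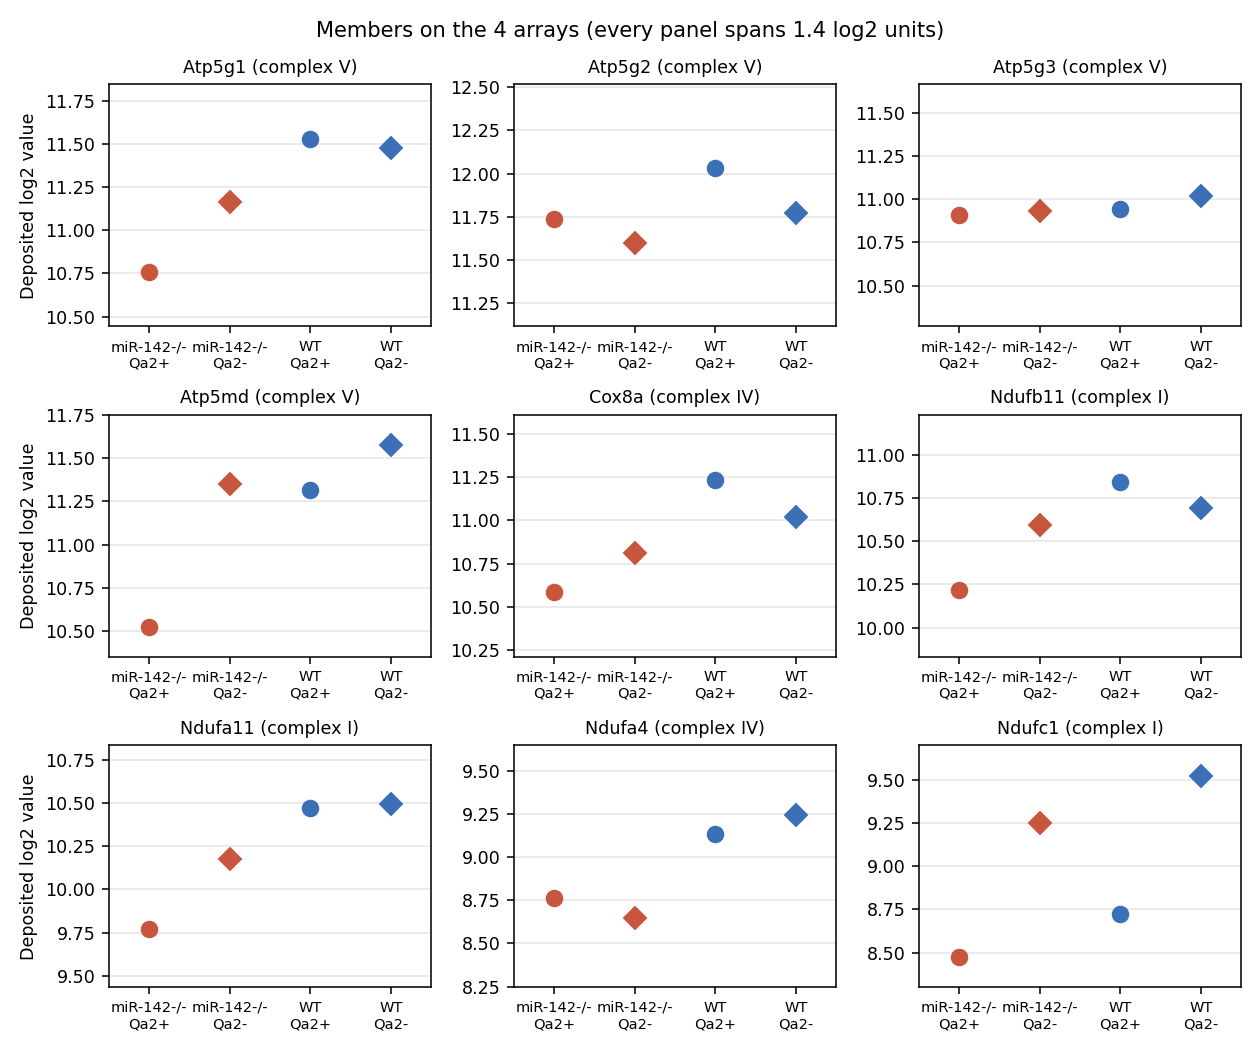
Deposited log2 values of 9 members on the 4 arrays, miR-142-/- in red and WT in blue, circles for Qa2+ and diamonds for Qa2- cells, with the same span in every panel. Atp5g1, Atp5md, Cox8a, Ndufb11 and Ndufa11 are lowest on the miR-142-/- Qa2+ array, Ndufa4 is low on both miR-142-/- arrays, Atp5g3 is nearly level and Ndufc1 is low on both Qa2+ arrays.

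The miR-142-/- Qa2+ array held the lowest of the 4 values for 41 of 80 members (51.2%), against 30.7% of all genes. The lowest value was on the miR-142-/- Qa2- array for 24 members (30%, against 19.0%), on the WT Qa2+ array for 12 (15%, against 33.3%) and on the WT Qa2- array for 3 (3.75%, against 17.0%). The highest value was on the miR-142-/- Qa2+ array for 7 members (8.75%, against 20.3%) and on the miR-142-/- Qa2- array for 7 (8.75%, against 30.1%). It was on the WT Qa2+ array for 24 (30%, against 21.6%) and on the WT Qa2- array for 42 (52.5%, against 28.0%). The differences of differences, Qa2+ minus Qa2-, ranged from -0.56 (Atp5md) to 0.55 (Ndufb6) with a median of -0.03, against -0.00 over all genes. Next to Atp5md, on the brightest probe sets, stood Ndufv3 (-0.55), Ndufb11 (-0.53), Ndufb8 (-0.50), Atp5g1 (-0.45) and Cox8a (-0.44). Next to Ndufb6 stood Atp5c1 (0.38), Cox5a (0.36), Ndufs1 (0.35) and Ndufa5 (0.34). Of the 80 members, 44 were below 0 and 36 above. These values rest on 4 arrays with no residual spread and have no test.

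Other transcripts moved with genotype too. DNA replication genes had medians of -0.92 in Qa2+ and -1.04 in Qa2- cells. Past 1.5-fold on the lower side, against 4.88% and 3.74% of all genes, were 22 and 24 of the 29 above background. Their summed log2 level was 225 and 221 in miR-142-/- Qa2+ and Qa2- cells, against 254 and 253 in WT. The 28 genes of G2 and mitosis had medians of -1.85 and -1.46, with 27 and 26 of them past that fold, and sums of 192 and 187 in miR-142-/- against 242 and 227 in WT. The 15 innate-like and effector T cell genes above background had medians of -0.68 and -1.46, with 10 and 11 past that fold, and sums of 112 and 108 in miR-142-/- against 125 and 130.1 in WT. Of 9 CD8 T cell genes, 4 and 6 were past that fold on the lower side and 0 and 0 on the higher, with medians of -0.45 and -1.41. Nkg7, Ccl5, Klrd1 and Gzmb are in this list and in the effector list, so these counts overlap. Cd8b1 differed by -1.23 and -0.73, Cd8a by -0.22 and -0.20 and Runx3 by 0.01 and 0.04. The 10 regulatory T cell genes were mixed, with medians of -0.50 and 0.09, 5 and 2 past that fold on the lower side and 1 and 1, Gpr83, on the higher (1.27 and 1.03). The 11 double-positive thymocyte genes had medians of 0.18 and 0.20, with 2 and 1 past that fold on the lower side and 1 and 3 on the higher. The part of these gene groups in the respiratory chain result was not tested. Above background were 2 of 8 B cell markers found on the array, 7 of 16 myeloid and dendritic, 2 of 3 erythroid, 2 of 3 gamma-delta T cell and 7 of 10 stromal markers. Those of B cells had medians of -0.23 in Qa2+ and -0.30 in Qa2- cells, and those of myeloid and dendritic cells -0.33 and 0.11.

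Other genes of mitochondrial energy metabolism were read in lists, and differences between the lists and the members were not tested. Mitochondrial ribosomal proteins, which translate the subunits of mitochondrial DNA, had medians of -0.06 and -0.14 in Qa2+ and Qa2- cells, with 48 and 59 of 77 below 0. Assembly factors had -0.05 and -0.09, with 23 and 28 of 41 below 0. The complex II assembly factor gene Sdhaf1 differed by 0.58 and 0.54 and the complex IV factor gene Coa5 by -0.45 and -0.54, in opposite directions. The 18 genes of the citric acid cycle and pyruvate oxidation had medians of 0.08 and -0.05, with pyruvate carboxylase Pcx at 0.51 and 0.72. The 17 electron carrier genes had medians of -0.01 and -0.02, with cytochrome c, Cycs, at -0.42 and -0.24 and the glycerophosphate shuttle enzyme Gpd2 at 0.55 and 0.36. Among 20 regulators of mitochondrial gene expression, with medians of 0.10 and -0.06, the mitochondrial DNA polymerase gene Polg read 10.00 and 10.15 in miR-142-/- Qa2+ and Qa2- cells, against 9.35 and 9.52 in WT. Tfb2m, a mitochondrial transcription factor, differed by -0.24 and -0.25 and Myc by -0.32 and -0.81. The 16 glycolysis genes had medians of -0.15 and -0.09, with the glycolytic kinase gene Pgk1 at -0.43 and -0.57. The 18 genes of carriers, uncoupling and antioxidant defence had medians of 0.04 and -0.13, with the mitochondrial fusion gene Mfn1 at 0.38 and 0.36 and the ATP synthase inhibitor gene Atpif1 at -0.63 and -0.29. The 13 subunit genes of mitochondrial DNA were not analysed here.

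Between the stages, respiratory chain genes as a group lay near other genes in their median and in the share below 0. The share above 0 in both genotypes was smaller than that of all genes, which was not tested. The median stage difference, Qa2+ minus Qa2-, was -0.07 in miR-142-/- and -0.08 in WT, against -0.06 and -0.06 over all genes, and 51 members (63.8%) and 53 (66.2%) were below 0, against 59.9% and 60.8% of all genes. In both genotypes 37 members (46.2%) were below 0, against 46.3%, and 13 (16.2%) above 0, against 25.6%. At least 1.5-fold lower in Qa2+ cells were 2 members in miR-142-/-, against 3.64% of all genes, and 1 in WT, against 3.69%. At least 1.5-fold higher were 0 and 0, against 2.65% and 2.69%, and 6.29% and 6.39% of all genes were past 1.5-fold either way. These counts use the brightest probe sets. In miR-142-/-, other probe sets were past 1.5-fold for Atp5l (up to 0.67), Cox7a2l (0.90) and Cox7b (-0.69). Averaged over genotypes, 5 members fell in Qa2+ cells (limma with the genotype pool as a block, Benjamini-Hochberg adjustment over 12591 genes, two-sided, threshold 0.05), against 8.35% of all genes, and 1 rose, against 4.77%. The members that fell were Ndufc1, Ndufs5 and Ndufa12 of complex I, Uqcrb of complex III and Atp5md of complex V, and Cox7a2l rose. The fit has 2 pairs and 1 residual degree of freedom, so its SEs rest mostly on the spread pooled over all genes. With 1 pool per genotype, that spread is how far the stage differences of the genotypes lie apart. It measures neither replicate pools nor mice. The fit also called 7 of the 60 receptor genes that lay above the background threshold, genes not known to act in thymocytes. Without the block 0 members passed limma's adjusted threshold, and 0 of all genes did, with 1544 at an unadjusted p under 0.05.

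**Figure D4:**
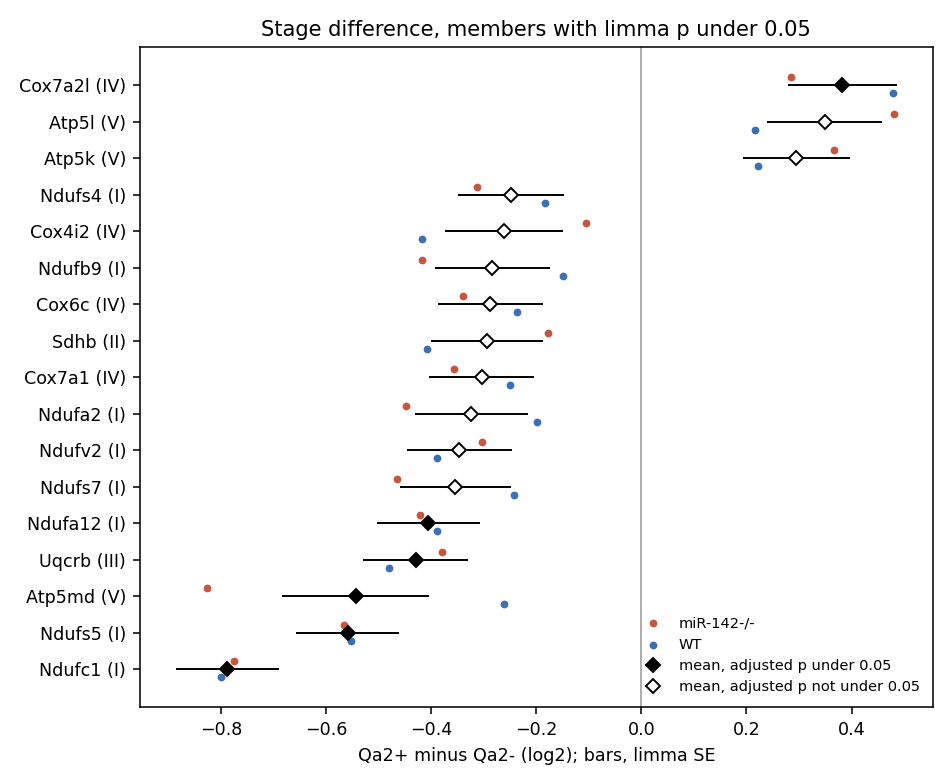
Log2 difference, Qa2+ minus Qa2-, of the 17 members with an unadjusted limma p under 0.05, for miR-142-/- (red), WT (blue) and their mean (diamonds, with the limma SE as bars), with the complex in brackets. Filled diamonds mark the 6 members that passed adjustment, from Cox7a2l at 0.38 to Ndufc1 at -0.79, and Atp5md shows the widest gap between genotypes.

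Ndufc1, a small membrane-arm subunit of complex I, read 8.48 in Qa2+ against 9.25 in Qa2- cells of miR-142-/-, and 8.72 against 9.52 in WT. Both Qa2+ arrays lay below both Qa2- arrays, 1.71-fold in miR-142-/- and 1.74-fold in WT, and the mean fell by 0.79 ± 0.10 (limma log2 difference ± SE, adjusted p = 0.00313). Ndufs5, also of the membrane arm, read 7.87 against 8.44 in miR-142-/- and 7.70 against 8.25 in WT and fell by 0.56 ± 0.10 (limma adjusted p = 0.0113). Ndufa12, an accessory subunit of the matrix arm, read 8.75 against 9.17 in miR-142-/- and 8.72 against 9.11 in WT and fell by 0.41 ± 0.10 (limma adjusted p = 0.0344). Its call was lost after centring of the arrays and after quantile normalization, with limma adjusted p between 0.0215 and 0.054 over the settings that keep the block.

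Uqcrb, a small complex III subunit near the ubiquinone site, read 11.21 in Qa2+ against 11.59 in Qa2- cells of miR-142-/- and 11.19 against 11.67 in WT, and fell by 0.43 ± 0.10 (limma adjusted p = 0.0297). The core gene Uqcrc1 read 10.11 against 10.38 and 10.25 against 10.43 without passing (adjusted p = 0.184). Atp5md read 10.52 against 11.35 in miR-142-/- and 11.32 against 11.58 in WT. Its mean fell by 0.54 ± 0.14 (limma adjusted p = 0.0416), with differences of -0.83 in miR-142-/- and -0.26 in WT, and the call was lost after centring and with the mean of its probe sets (limma adjusted p between 0.0135 and 0.0625 over the settings that keep the block). Cox7a2l, counted in complex IV, read 9.11 against 8.82 in miR-142-/- and 9.38 against 8.90 in WT and rose by 0.38 ± 0.10 (limma adjusted p = 0.0491). Its second probe set differed by 0.90 in miR-142-/- and 0.31 in WT, so the size in miR-142-/- depends on the probe set.

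Members that did not pass the adjusted threshold included others with the same sign in both genotypes. Cox7a1 differed by -0.36 in miR-142-/- and -0.25 in WT (limma adjusted p = 0.086), Sdhb by -0.18 and -0.41 (adjusted p = 0.11) and Sdhc by -0.34 and -0.09 (adjusted p = 0.223). Subunits e and g of ATP synthase ran above 0, Atp5k by 0.37 and 0.22 (limma adjusted p = 0.0966) and Atp5l by 0.48 and 0.22 (adjusted p = 0.0739), and both passed after quantile normalization. Over its 6 probe sets Atp5l differed by 0.45 to 0.67 in miR-142-/- and by 0.12 to 0.39 in WT. Of the 3 genes for subunit c, Atp5g1 differed by -0.40 and 0.05, Atp5g2 by 0.14 and 0.26 and Atp5g3 by -0.02 and -0.07. Stage differences below 0 in miR-142-/- and above 0 in WT were found for 14 members (17.5%), against 13.6% of all genes, and the reverse for 16 (20%), against 14.5%. The 14 were Atp5g1, Atp5j2, Cox6b1, Cox7a2, Cox8a, Cox8c, Ndufa8, Ndufb11, Ndufb5, Ndufb7, Ndufb8, Ndufs6, Ndufv3 and Uqcrh. The 16 were Atp5c1, Atp5mpl, Atp5pb, Cox5a, Cox6b2, Ndufa1, Ndufa4, Ndufa5, Ndufab1, Ndufb3, Ndufb6, Ndufs1, Ndufs3, Sdhd, Uqcrfs1 and Uqcrq.

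Over all genes, limma called 4.77% higher and 8.35% lower in Qa2+ cells. In the other pathway lists, limma called 0 of 41 assembly factors higher and 1 lower in Qa2+ cells, which was Ndufaf2 (-0.82). It called 0 and 1 of 17 electron carriers (Gpd2, -0.77), 0 and 0 of 18 genes of the citric acid cycle and 0 and 6 of 77 mitochondrial ribosomal proteins, among them Mrps11 (-0.70) and Mrpl22 (-0.51). In these lists neither share called was above that of all genes. Of 20 regulators, Ppargc1b, a co-activator of mitochondrial biogenesis, rose by 0.49 and Gabpb1, a GABP subunit, fell by 0.37. Of 16 glycolysis genes 0 rose and 3 fell, Ldhb by 0.95, Pgam1 by 0.60 and Slc2a3 by 0.53, and of 18 carrier and defence genes Atpif1 alone passed and fell by 0.73. In the other lists, 8 of 28 genes of G2 and mitosis rose and 0 fell, 4 of 29 replication genes rose and 2 fell, 6 of 11 double-positive thymocyte genes rose and 1 fell, and 5 of 10 regulatory T cell genes rose and 1 fell. Of 9 CD4 T cell genes 0 rose and 4 fell, which were Gata3, Zbtb7b, Cd28 and Lef1, while Cd4 was not called. The part of these gene groups in the stage differences was not tested.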

How the data were processed

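Affymetrix Mouse Gene 1.0 ST arrays were used, and the authors deposited log2 values per probe set. The tools listed, per the submitters' processing notes, are RMA and Partek, with no version and no role stated for either. RMA subtracts background and equalises the arrays' distributions, so dim probe sets show smaller differences and a change common to all genes can be hidden. In the deposited values the array medians over all probe sets still lay between 6.61 and 6.74. The stage medians over all genes were -0.06 in miR-142-/- and -0.06 in WT, so a small shift between arrays remained in the stage differences. Many subunit genes have processed pseudogenes, and probes can cross-hybridise with them.

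Everything else was computed from the deposited table of 35557 probe sets, of which 21789 listed 1 symbol and 1621 several. Of probe sets with several, 6 list a member symbol and were not used. All 82 members matched a RefSeq record (GRCm38.p6) by Entrez ID under the same symbol. In 17 members with several probe sets the brightest was taken. The members and gene lists were chosen with earlier results of these data known. Named genes are the members at least 1.5-fold apart, the largest shared genotype and stage differences and difference of differences of each complex, the core subunits and the isoform sets. In the pathway lists they are up to 4 genes with the largest shared differences, and some other members were named after their values were seen.

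Genotype differences are miR-142-/- minus WT and stage differences Qa2+ minus Qa2-, with 1 array per group and no test. The stage difference averaged over genotypes was fitted with limma 3.58.1 (R 4.3.3) on 12591 genes, with a prior of 6.94 degrees of freedom. In simulated data for this comparison on 12591 genes, the fit called 50 of 50 genes changed by 1, 47 of 50 changed by 0.5 and 12 of 50 changed by 0.3 on the log2 scale, with 24 false calls. The simulated noise was independent between arrays and drawn from the fit's own variances, with the same stage change in both genotypes. These figures are therefore not the error rate on the real arrays, where 7 of 60 receptor genes were called. Alternatives were array centring, quantile normalization, no background filter or the 99th percentile, the mean of probe sets, other fold thresholds, fits without the block or with a variance trend, and leaving out X-linked or assembly-related members.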

Additional observations from a re-analysis of the deposited data

Results flagged for a closer look

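Ndufb6, an accessory subunit gene of the membrane arm of complex I, had genotype differences, miR-142-/- minus WT, of 0.26 among Qa2+ and -0.29 among Qa2- cells. It was singled out because the directions were opposite and both differences were larger than the scatter of receptor genes. It read 10.71 and 10.38 in miR-142-/- Qa2+ and Qa2- cells, against 10.45 and 10.66 in WT, and the difference between the populations was not tested.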

How the results depend on the processing

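The median genotype difference of all members stayed below 0 under every scaling, filter and probe set rule run and without X-linked or assembly-related members, between -0.15 and -0.11 in Qa2+ and between -0.16 and -0.10 in Qa2- cells. The shift of all genes moved by less than 0.1 under each scaling run. For complex V in miR-142-/-, where the stage median as deposited was just below 0, it was 0.0318 after centring and 0.0448 after quantile normalization, and for complex II it was 0.00675 after quantile normalization against -0.04 as deposited. Of 80 members, limma called 3 lower after centring and 8 with a variance trend, against 5 in the fit reported, and 3 higher after quantile normalization, against 1. Over all genes 36.3% of calls were higher, against 47.7% with centred arrays and 56.1% with quantile-normalized ones. Without the genotype block 0 members passed in either direction. Members at least 1.5-fold lower in Qa2- cells fell to 0 after centring, and 1 member was at least 1.5-fold higher between stages in miR-142-/- without the background filter (Cox8b) and with the mean of probe sets (Cox7a2l). At 2-fold 0 members were lower in any comparison. At 1.2-fold, 26 were lower and 2 higher in miR-142-/- Qa2+ cells and 16 lower and 1 higher in miR-142-/- Qa2- cells against WT. Between stages 25 were lower and 6 higher in miR-142-/- and 7 lower and 1 higher in WT. The shares of all genes past 1.2-fold in a single comparison were not counted, so these numbers show nothing particular to the members. Counting Ndufa4 and Ndufa4l2 in complex I, an alternative chosen after seeing the data, turned no median. Of 2140 values of single members under alternatives, 2121 kept their direction or call, or moved by less than the receptor-gene scatter. Many of these could hardly change, so the count does not measure robustness. A background filter leaves a member's differences between arrays as they were, and the mean of probe sets alters only the 17 members with several. Array centring shifts all members alike, by less than that scatter. The block pairs the populations sorted from each genotype's pool, since the labels carry no replicate numbers, and no array could be left out because each group has 1.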
